A study of Rattus norvegicus with 18 samples.

Results

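Fatty acid oxidation and ketogenesis were followed through 8 genes, Ppara, Cpt1a, Cpt2, Acadm, Acadl, Ehhadh, Pdk4 and Hadha, in rat liver during treatment with diethylnitrosamine. Every probe set whose deposited gene symbol was one of these names was taken, which gave 11 probe sets for the 8 genes, out of 31042 probe sets and 13903 named genes on the array. Total RNA came from Sprague-Dawley rats, from the middle of the right lobe of the liver, and was hybridised to Affymetrix Rat Genome 230 2.0 arrays, on which each probe set reports the 3' part of a transcript as 1 fluorescence signal. The 6 groups were normal liver at 0 h and liver after 5, 8, 12, 16 or 18 weeks of diethylnitrosamine, a nitrosamine that alkylates DNA once cytochrome P450 enzymes have activated it and that induces liver tumours in rodents. The labels call the treated samples liver tissues from HCs, an abbreviation that these labels do not spell out. Each group held 3 arrays (18 in all), which the labels call technical replicates, so the tests see the array to array spread, which need not hold any variation among rats. There was no normal liver at the later times, every sample carries an age of 12 weeks, and neither dose nor sex is stated, so treatment time and age cannot be told apart.

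Fatty acids enter the mitochondrial matrix as carnitine esters. Cpt1a on the outer membrane makes the ester in the step that malonyl-CoA inhibits, and Cpt2 on the inner membrane turns it back to acyl-CoA. Beta-oxidation then shortens the chain in cycles of dehydrogenation, hydration, dehydrogenation and thiolysis, and in liver much of the acetyl-CoA goes to ketone bodies. Peroxisomes run a parallel pathway for very long, branched and dicarboxylic chains. PPARalpha, encoded by Ppara, is the fatty acid-activated nuclear receptor that drives many of these genes in hepatocytes, above all in fasting.

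The members fell unevenly. Cpt1a and Pdk4 were already lower at 5 weeks, Ehhadh joined them from 8 weeks, and Acadm passed the test at 16 weeks, while Cpt2, Acadl and the main Hadha probe set stayed within 2-fold of normal liver at all 5 times. Signals below are on the deposited linear scale, changes are log2 differences of signal + 16 (± SE, n = 3 arrays per group, limma), and a gene was called when the adjusted p of limma was under 0.05 and the change at least 2-fold. A gene was counted by its brightest probe set. Of the 8 genes 7 passed a filter on mean signal above 94.4, the 40th percentile of all probe sets, and Ppara did not. Among the 7 tested, 2, 2, 3, 4 and 3 were called lower in order of time from 5 to 18 weeks, and none was called higher at any time by limma. Without the fold threshold 3, 5, 7, 7 and 7 of them had an adjusted p under 0.05, of which 2, 5, 7, 7 and 7 were lower, Ehhadh at 5 weeks being the exception. Of all 10467 genes tested, the shares called lower were 1.66%, 3.19%, 4.51%, 5.69% and 4.48% at the same times. The shares called higher were 4.55%, 7.52%, 12.4%, 14.8% and 11.3% in the same order. The median change of the 7 members was 0.02, -0.22, -0.77, -1.07 and -0.88, beside 0.04, 0.12, 0.15, 0.16 and 0.12 over all genes.

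**Figure D1:**
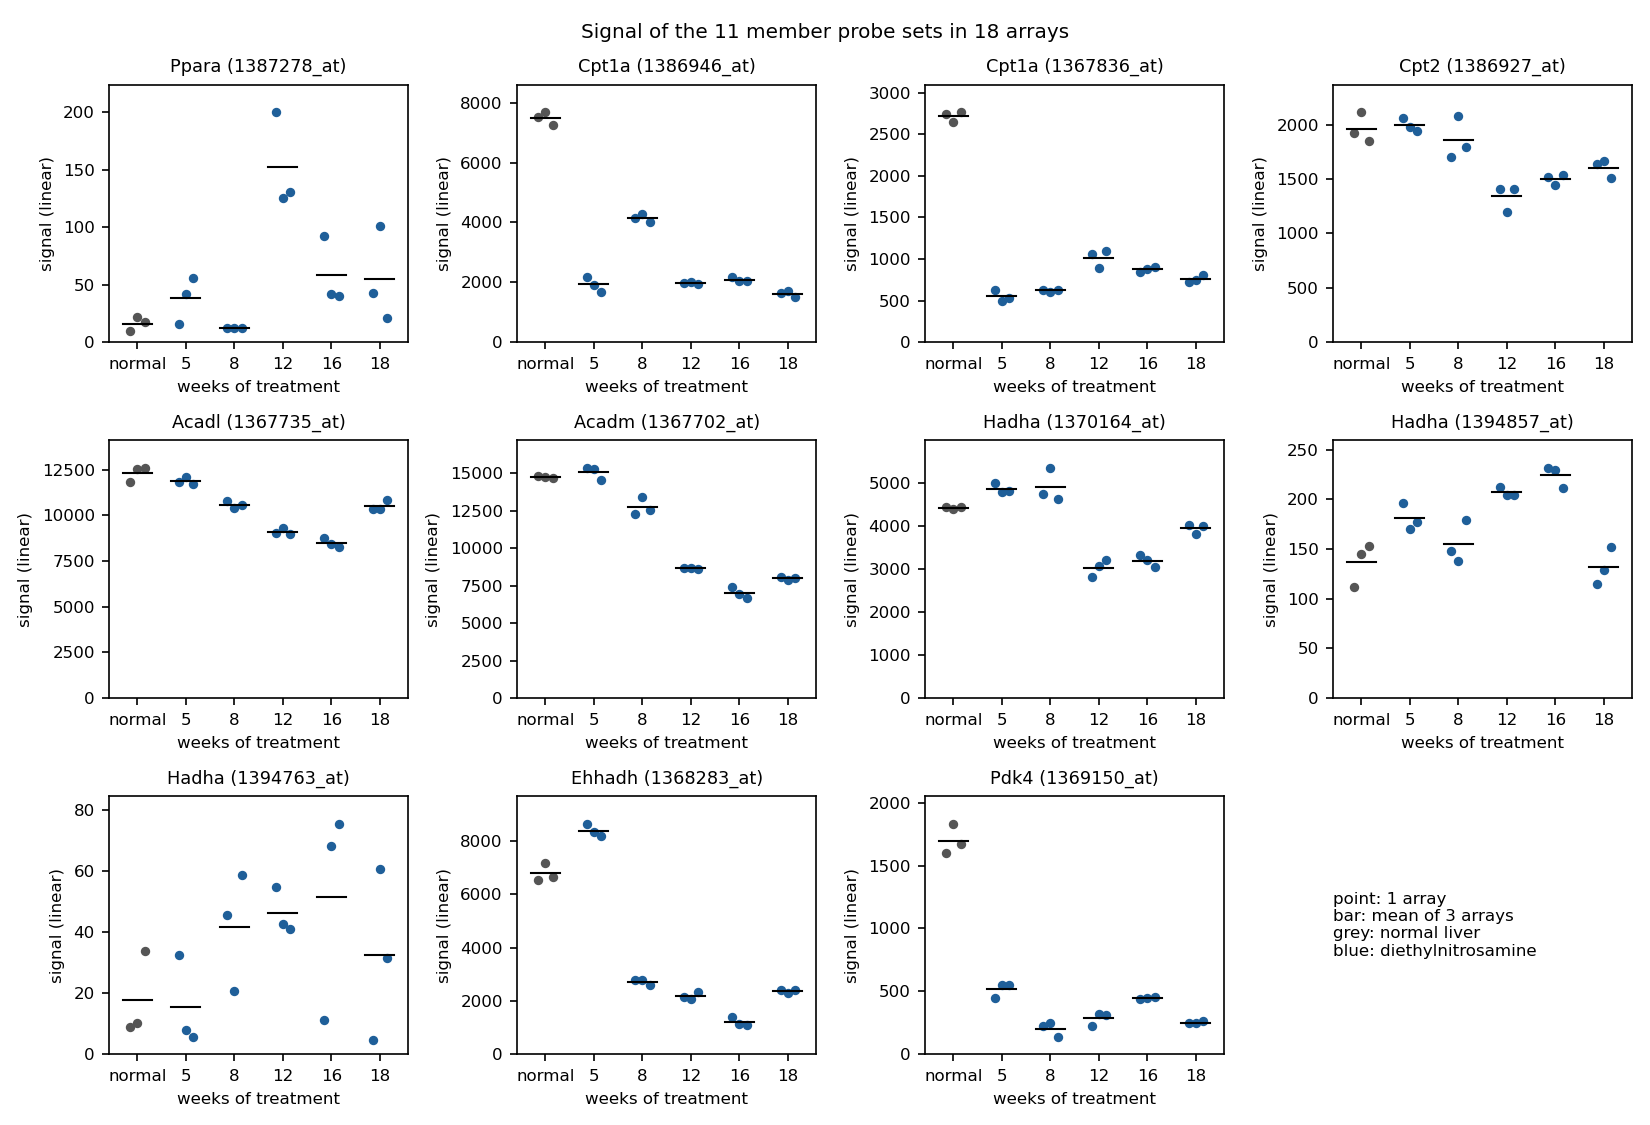
Signal of each of the 11 member probe sets on the deposited linear scale (vertical axes from 0, a separate scale per panel) against weeks of treatment, with a point per array and a bar at the mean of 3 arrays. Cpt1a, Pdk4 and Ehhadh fall well below the grey normal arrays, Cpt2, Acadl and the brightest Hadha probe set stay near them, and the Ppara panel ends near 200.

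Ppara, the receptor itself, was too dim to test with the others. Its signals were 9.50, 21.7 and 17.2 in normal liver, 16.0, 42.1 and 55.6 at 5 weeks, and 12.1, 12.5 and 12.0 at 8 weeks. They were 199.97, 125.3 and 130.7 at 12 weeks, 92.5, 41.5 and 39.9 at 16 weeks, and 42.6, 100.8 and 21.2 at 18 weeks. The 12-week arrays were the only ones with all 3 signals above the filter level, and the normal arrays did not overlap with them or with the 16-week arrays. With the filter left out, Ppara was called higher at 12 weeks (2.38, adjusted p = 0.000195) and at 16 weeks (1.15, adjusted p = 0.0274) in limma, and not at 5, 8 or 18 weeks (0.69, -0.17 and 0.998). All of these sizes depend on the pseudocount of 16, since normal liver averaged 16.2 ± 6.19 (SD, n = 3), and 1 probe set at this brightness says little of the receptor's true level.

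Cpt1a, the entry step of mitochondrial oxidation, had fallen to 25.7% of its normal mean signal by 5 weeks. Its promoter is shown because Cpt1a is the carnitine shuttle gene that moved most. The window runs from 250 bases before to 50 after the gene start (RefSeq, GRCr8, chr1:209995910-209996209, plus strand), and holds none of the motifs searched, which would stand in capitals.
Cpt1a: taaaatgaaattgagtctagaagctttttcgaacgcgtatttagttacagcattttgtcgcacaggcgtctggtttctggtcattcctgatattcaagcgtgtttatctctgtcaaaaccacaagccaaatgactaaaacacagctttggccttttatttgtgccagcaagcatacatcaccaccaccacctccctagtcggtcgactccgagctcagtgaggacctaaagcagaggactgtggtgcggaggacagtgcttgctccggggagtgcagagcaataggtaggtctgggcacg
The brighter of its probe sets read 7513, 7688 and 7258 in normal liver, 2186, 1908 and 1684 at 5 weeks, and 4141, 4270 and 4011 at 8 weeks. It then read 1987, 1997 and 1937 at 12 weeks, 2178, 2047 and 2041 at 16 weeks, and 1655, 1713 and 1493 at 18 weeks. Every treated array lay below every normal array, the 8-week arrays stood above all other treated arrays, and from 12 weeks the signal was back at the level of 5 weeks. The changes against normal liver were -1.96 ± 0.0795 at 5 weeks (adjusted p = 1.12e-10), -1.92 and -1.83 after 12 and 16 weeks, and -2.20 after 18 weeks (adjusted p = 6.82e-12), all called by limma. At 8 weeks the change was -0.85 ± 0.0795 (adjusted p = 3.92e-07), short of 2-fold. In the order of group levels, 12 and 5 weeks overlapped and so did 5 and 18 weeks, while the other neighbours did not.

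The other Cpt1a probe set gave the same direction but a different course. It read 2743, 2649 and 2768 in normal liver, 628, 497 and 531 at 5 weeks, and 631, 602 and 632 at 8 weeks. It read 1060, 893 and 1093 at 12 weeks, 843, 877 and 909 at 16 weeks, and 718, 748 and 811 at 18 weeks. Here 8 weeks did not rise above 5 weeks, and 12 weeks was the highest treated group, overlapping with 16 weeks. This probe set was called lower at all 5 times (-2.28, -2.10, -1.41, -1.62 and -1.82 ± 0.0869). The log2 difference between the brighter and the dimmer probe set was 1.46 ± 0.0732 (SD, n = 3) before treatment, 1.77 ± 0.135 after 5 weeks and 2.71 ± 0.0816 after 8 weeks, and it lay between 0.95 and 1.24 at the later times. The 8-week arrays lay at 2.64 to 2.80, apart from all other arrays, of which the highest was at 1.91. The ratio of Gapdh signals from the 3' and the 5' end, a measure of RNA or labelling quality, was also highest at 8 weeks, at 2.08 to 2.18, against 1.08 to 1.19 in normal liver, 1.44 to 1.49 at 5 weeks and 1.22 to 1.34 from 12 to 18 weeks. Its part in the Cpt1a difference was not tested. The step up from 5 to 8 weeks and the step down from 8 to 12 weeks therefore rest on 1 of the 2 Cpt1a probe sets.

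**Figure D2:**
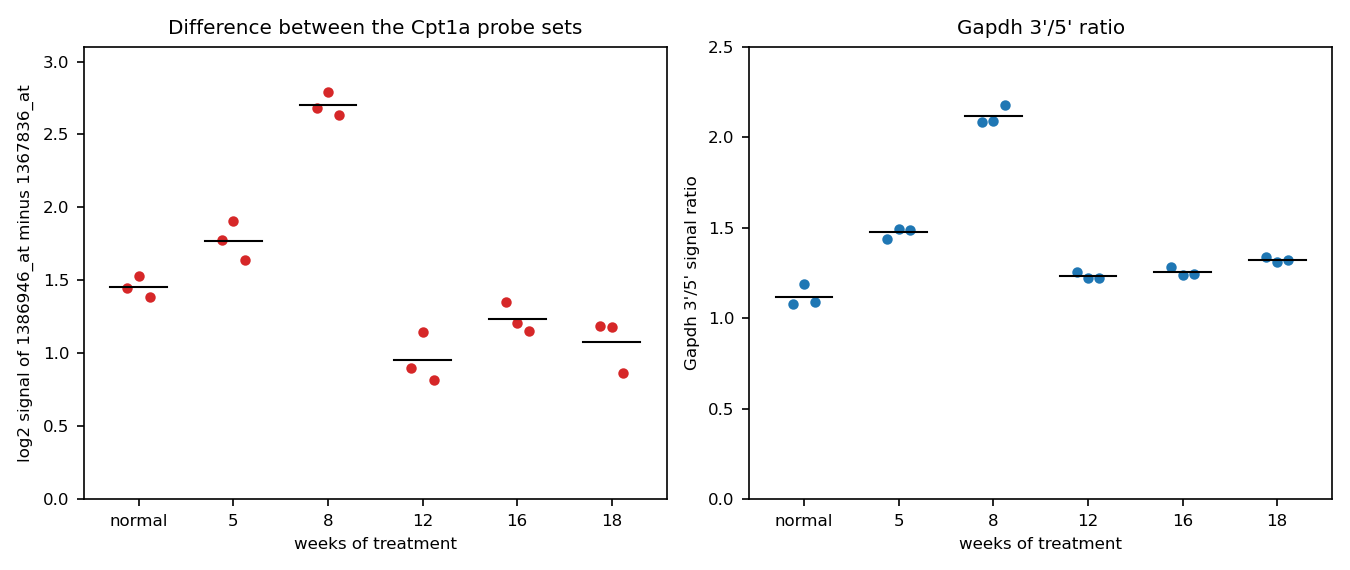
Left, the log2 signal of the brighter minus the dimmer Cpt1a probe set in each array; right, the Gapdh 3'/5' signal ratio of the same arrays, both against weeks of treatment, with a bar at the mean of 3 arrays. The 8-week arrays are the highest in both panels, at 2.64 to 2.80 on the left and 2.08 to 2.18 on the right.

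Cpt2, which regenerates acyl-CoA inside the mitochondrion, did not follow Cpt1a. Its signal was 1852 to 2115 in normal liver, 1941 to 2060 at 5 weeks and 1705 to 2083 at 8 weeks, and these 3 groups overlapped. It was 1200 to 1410 at 12 weeks, 1447 to 1536 at 16 weeks and 1513 to 1660 at 18 weeks, all below the normal arrays. The change was largest at 12 weeks, at -0.55 ± 0.0830 (adjusted p = 4.47e-05, limma), and no time reached 2-fold.

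Acadl and Acadm encode the long-chain and medium-chain acyl-CoA dehydrogenases, which open each cycle. Acadl, a major long-chain enzyme of rodents, had 11836 to 12582 in normal liver, 11697 to 12070 at 5 weeks and 10408 to 10774 at 8 weeks. It had 8956 to 9320 at 12 weeks, 8281 to 8747 at 16 weeks and 10355 to 10842 at 18 weeks. Normal and 5-week arrays overlapped, as did 8-week and 18-week arrays, and the lowest group was 16 weeks (-0.54 ± 0.0459, adjusted p = 8.88e-08, limma), which did not reach 2-fold.

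Acadm moved further than Acadl and was the acyl-CoA dehydrogenase called among the members. Its promoter (RefSeq, GRCr8, chr2:245542815-245543114, minus strand) is shown because it was the one member window with the palindrome TGACGTCA, the cAMP response element. Capitals mark this palindrome, 103 bases before the gene start, and 3 GC boxes (GGGCGG on either strand).
Acadm: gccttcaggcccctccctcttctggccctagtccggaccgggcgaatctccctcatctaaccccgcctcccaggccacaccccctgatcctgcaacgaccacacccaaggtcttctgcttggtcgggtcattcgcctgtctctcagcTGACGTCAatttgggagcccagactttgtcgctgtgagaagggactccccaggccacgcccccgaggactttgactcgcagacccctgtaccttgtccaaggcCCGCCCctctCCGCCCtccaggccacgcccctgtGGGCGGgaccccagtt
Acadm read 14812, 14758 and 14688 in normal liver, 15352, 15319 and 14581 at 5 weeks, and 12291, 13454 and 12580 at 8 weeks. It read 8654, 8670 and 8637 at 12 weeks, 7413, 6976 and 6663 at 16 weeks, and 8089, 7912 and 8008 at 18 weeks. Normal and 5-week arrays overlapped, and from 8 weeks on the treated arrays lay below both. The change was 0.03 ± 0.0508 and -0.21 in the first 2 treated groups, and -0.77 and -0.88 after 12 and 18 weeks. At 16 weeks it was -1.07 (adjusted p = 1.07e-10, limma), the one call. Under quantile normalization the 16-week change was -0.54 and no longer called, and with arrays centred on their medians it was also called at 12 weeks (-1.15) and at 18 weeks (-1.07). Signals above 14003, which exceed 99% of probe sets in normal liver, may be saturated, and for Acadm this was not tested.

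Hadha encodes the alpha subunit of the trifunctional protein, which performs the hydration and the later dehydrogenation on long chains. Its brightest probe set had 4375 to 4438 in normal liver, 4789 to 4992 at 5 weeks and 4611 to 5335 at 8 weeks. It had 2807 to 3209 at 12 weeks, 3039 to 3327 at 16 weeks and 3809 to 4005 at 18 weeks. The 5-week and 8-week arrays stood above the normal arrays and the 12-week to 18-week arrays below them, with changes of 0.14, 0.15, -0.55, -0.47 and -0.17 ± 0.0643, none of them 2-fold. The drop from 8 to 12 weeks was -0.69 (adjusted p = 5.29e-07, limma). A dimmer probe set had 111 to 153 in normal liver, 204 to 213 at 12 weeks and 212 to 231 at 16 weeks, and so went the other way at these times (0.56 and 0.67 ± 0.115), also without a call. The faintest had signals of 4.73 to 75.4 over all arrays, under the filter level, and was not tested. The direction for Hadha thus differs between its probe sets.

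Ehhadh, the peroxisomal bifunctional enzyme and a classical PPARalpha target of rodents, was above normal liver at 5 weeks and called lower from 8 weeks. Its promoter (RefSeq, GRCr8, chr11:92746159-92746458, plus strand) is shown because Ehhadh had the largest change of any member at 16 weeks and its window, like that of Hadha, holds a loose match to the direct repeat that PPARalpha binds with its partner RXR. Capitals mark a stretch 8 bases before the gene start that matches the AGGTCA half-site repeated with 1 base between at all but 3 letters, a CCAAT box and a GC box.
Ehhadh: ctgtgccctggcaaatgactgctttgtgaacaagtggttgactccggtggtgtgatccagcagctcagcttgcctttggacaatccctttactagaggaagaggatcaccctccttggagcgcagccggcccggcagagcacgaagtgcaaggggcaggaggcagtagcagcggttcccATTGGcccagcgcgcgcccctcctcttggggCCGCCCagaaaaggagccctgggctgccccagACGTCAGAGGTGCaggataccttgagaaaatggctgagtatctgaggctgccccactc
Ehhadh read 6552, 7188 and 6663 in normal liver, 8647, 8352 and 8196 at 5 weeks, and 2767, 2779 and 2598 at 8 weeks. It read 2152, 2086 and 2336 at 12 weeks, 1383, 1143 and 1081 at 16 weeks, and 2420, 2289 and 2416 at 18 weeks. The 5-week arrays were all above the normal arrays and all later arrays far below them, with no overlap. The change was 0.30 ± 0.0796 at 5 weeks (adjusted p = 0.0056, limma, not 2-fold), then -1.32, -1.63, -2.49 and -1.51 from 8 to 18 weeks, all called. At 16 weeks 17.7% of the normal mean signal was left (adjusted p of the log2 change = 1.42e-12, limma). The step from 5 to 8 weeks was -1.62 (adjusted p = 1.99e-09), and against 5 weeks, a comparison without the normal arrays, Ehhadh was lower by -1.93, -2.80 and -1.82 in the 3 later groups. From 16 to 18 weeks it was higher by 0.98 (adjusted p = 6.99e-07), just short of 2-fold.

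Pdk4 encodes a pyruvate dehydrogenase kinase that shuts off pyruvate oxidation when fatty acids are the fuel, and it is induced by fasting. Its promoter (RefSeq, GRCr8, chr4:34568280-34568579, minus strand) is shown because Pdk4 had the largest fall of any member. Capitals mark a CCAAT box and 2 GC boxes.
Pdk4: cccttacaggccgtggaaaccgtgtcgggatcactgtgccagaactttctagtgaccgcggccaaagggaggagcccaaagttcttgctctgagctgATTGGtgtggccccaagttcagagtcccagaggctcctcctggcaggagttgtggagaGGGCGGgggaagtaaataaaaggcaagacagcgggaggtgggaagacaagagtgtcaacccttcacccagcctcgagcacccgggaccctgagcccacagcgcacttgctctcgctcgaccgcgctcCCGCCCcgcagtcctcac
Pdk4 read 1597, 1831 and 1669 in normal liver, 449, 547 and 554 at 5 weeks, and 222, 245 and 137 at 8 weeks. It read 224, 322 and 311 at 12 weeks, 436, 445 and 454 at 16 weeks, and 247, 245 and 261 at 18 weeks. Every treated array lay under the lowest normal array, and among treated groups 5 and 16 weeks overlapped at the top while 8, 12 and 18 weeks overlapped at the bottom. The changes were -1.69, -3.01, -2.52, -1.89 and -2.68 ± 0.167, all called (adjusted p from 1.55e-09 to 1.29e-06, limma). At 8 weeks 11.9% of the normal mean signal remained, in the arrays with the highest Gapdh 3'/5' ratios (2.08 to 2.18), whose part in this value was not tested. The step from 5 to 8 weeks was -1.32 (adjusted p = 3.1e-05), and its SE was the largest among the tested members.

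Promoter windows were found for 7 of the 8 members among 33469 rat windows of 300 bases, and each motif was searched on both strands. The half-site AGGTCA stood in 16.2% of all windows and in 0 of the 7. Its direct repeat with 1 base between, allowing 2 mismatches, stood in 3.77% of all windows and in 0 of the 7. Allowing 3 mismatches it stood in 24.9% of all windows and in 2 of the 7, Ehhadh and Hadha, so a match this loose is common. GC boxes were in 6 of the 7 (33.1% of all windows), CCAAT in 3 of the 7 (37.5%) and TGACGTCA in 1 of the 7 (1.83%). The E-box CACGTG (6.42%) and the TATAAA box (14.2%) were in none. The half-site is part of the direct repeat, and these matches describe letters in a short window, not binding.

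**Figure D3:**
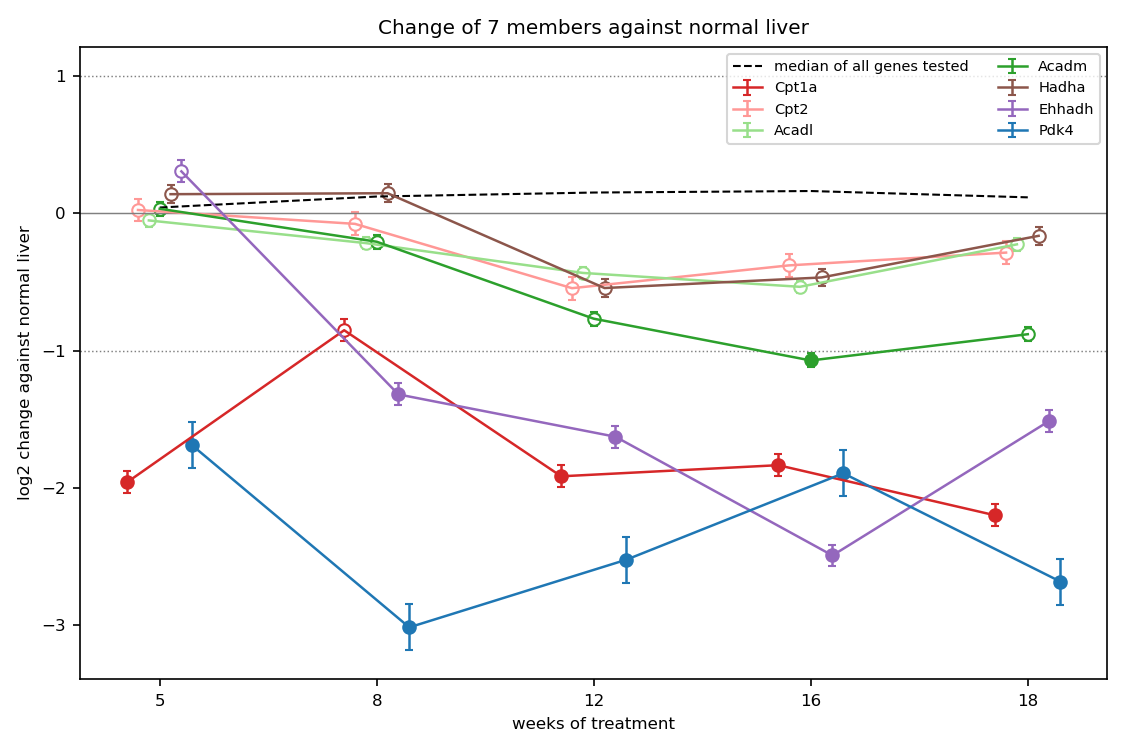
Log2 change against normal liver (vertical axis, error bars ± SE, n = 3 arrays per group) of the 7 tested members at 5 treatment times, with filled points called and open points not called. Cpt1a and Pdk4 lie below Cpt2, Acadl, Acadm and Hadha from 5 weeks and Ehhadh from 8 weeks, and the dashed line is the median of all genes, between 0.04 and 0.16.

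Each time was also set against the one before it. From 5 to 8 weeks 2 of 7 members were called lower (Ehhadh and Pdk4) and 1 higher (Cpt1a), beside 1.04% of all genes lower and 1.15% higher. From 8 to 12 weeks 1 of 7 was called lower (Cpt1a, -1.06), beside 1.91% of genes. All 7 had an adjusted p under 0.05 in limma, Pdk4 being higher (0.49) and the others lower. The dimmer Cpt1a probe set went the other way in this step (0.69, adjusted p = 1.15e-05, limma), short of 2-fold. At 16 against 12 weeks and 18 against 16 weeks limma called 0 of 7, beside 1.49% and 1.64% of genes in either direction. In those steps 4 and 6 of the 7 had an unadjusted p under 0.05 in limma, and 3 and 6 an adjusted p under 0.05. At 16 against 12 weeks these 3 were Acadm and Ehhadh (-0.30 and -0.86) and Pdk4 (0.63). At 18 against 16 weeks Ehhadh, Acadl, Hadha and Acadm were higher (0.98, 0.31, 0.30 and 0.19). Pdk4 and Cpt1a were lower (-0.79 and -0.365). A trended, robust variance also called 0 in both steps. Against 5 weeks in place of normal liver, 1 of 7 was called lower at 12 weeks (3.14% of genes), 2 at 16 weeks (3.93%) and 1 at 18 weeks (3.01%), namely Ehhadh each time and Acadm at 16 weeks (-1.10). The changes against normal liver share the normal arrays, so the 5 times are not independent of each other.

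Other genes of these pathways were taken from 9 lists, of which 93 genes besides the members were tested. At 5 weeks 4 were called lower and 2 higher, at 8 weeks 5 and 4, at 12 weeks 31 and 5, at 16 weeks 35 and 7, and at 18 weeks 22 and 7. Of all 10467 genes tested, 1.66%, 3.19%, 4.51%, 5.69% and 4.48% were lower at these times. The shares higher were 4.55%, 7.52%, 12.4%, 14.8% and 11.3%. The median change of the 93 genes was -0.11, -0.26, -0.62, -0.69 and -0.45. With arrays centred on their medians, 60 were lower and 4 higher at 16 weeks, beside 1465 and 878 of all 10467 genes. At 8 weeks this centring gave 9 and 4, beside 427 and 641 of all genes. Under quantile normalization 23 were lower and 4 higher at 16 weeks, beside 653 and 1166 of all genes. Of 12 other mitochondrial matrix enzymes, 1 was called lower (Suclg2 at 16 weeks) and 1 higher (Idh3a from 12 weeks), both named after their values were seen. The median change of the 12 stayed between -0.17 and 0.11. Their summed signal did fall, from 53312 to 53643 in normal liver to 44205 to 45621 at 12 weeks and 40299 to 41978 at 16 weeks. It was 53651 to 54961 at 5 weeks, 49021 to 50247 at 8 weeks and 48903 to 50484 at 18 weeks.

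Of the 10 genes of fatty acid uptake and activation, 1 was lower at 5 and at 8 weeks and 5 were lower at 12, 16 and 18 weeks and none higher. Slc27a5, a bile acid and very long chain acyl-CoA ligase of liver, fell from 21551 in normal liver to 2965 at 12 weeks (-2.86 ± 0.0452) and 3028 at 16 weeks. Acsl5, a long-chain acyl-CoA synthetase, fell by 1.78 on the log2 scale at 16 weeks by its brightest probe set, while its other tested probe set was at 0.01. Acsm5, a medium-chain one, fell by 1.56. Cd36, a fatty acid transporter, showed another course. It had 8402 in normal liver, 1682 at 5 weeks and 2058 at 8 weeks (-2.31 and -2.02, both called) and 5837, 4617 and 6968 at 12, 16 and 18 weeks (-0.53, -0.86 and -0.27, not called). The other tested Cd36 probe set was at -2.75 at 5 and at 8 weeks and at -1.18 at 16 weeks. Cd36 was thus low at 5 weeks, as Cpt1a and Pdk4 were. The Gapdh 3'/5' ratio was also higher at 5 and 8 weeks than in the other groups, and its part in the course of Cd36 was not tested.

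In the carnitine shuttle apart from Cpt1a and Cpt2, 1, 1, 2, 3 and 2 of 7 genes were lower at the 5 times in order. Slc22a5, the plasma membrane carnitine transporter, was called at all 5 times (-1.72, -1.68, -1.52, -1.02 and -1.17 ± 0.142). Crot, the peroxisomal carnitine octanoyltransferase, was called from 12 weeks (-1.88 ± 0.0561), and Bbox1, which makes carnitine, at 16 weeks (-1.04 ± 0.0634). Their other tested probe sets were at -1.17 (Crot) and -1.39 (Bbox1) at 8 weeks, when the Gapdh 3'/5' ratio was highest. The part of that ratio in these 8-week values was not tested.

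Of 13 further mitochondrial beta-oxidation genes, 1 was lower at 5 and at 8 weeks, 5 at 12 and at 16 weeks and 3 at 18 weeks, and none was higher. Acadsb, the dehydrogenase of short branched acyl chains, had 2166 in normal liver, against 401, 189, 725, 512 and 585 from 5 to 18 weeks of treatment. It was lower at every time and lowest at 8 weeks (-3.43 ± 0.0872), when the Gapdh 3'/5' ratio was highest. The part of that ratio in this result was not tested. Etfb, which carries electrons from the dehydrogenases, was called from 12 weeks (-1.33, -1.49 and -1.05 ± 0.0742), Acadvl, the very long chain dehydrogenase, at 12 weeks (-1.15 ± 0.0530) and Echs1, the short-chain hydratase, at 16 weeks (-1.25 ± 0.0635).

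The peroxisomal list besides Ehhadh had 5 of 14 genes lower at 12 weeks, 7 at 16 weeks and 2 at 18 weeks, with none lower at 5 or 8 weeks. Acox2, the branched-chain oxidase of bile acid synthesis, fell from 9024 in normal liver to 1207 at 12 weeks and 879 at 16 weeks (-2.89 and -3.34 ± 0.0727), and Amacr, a racemase for branched acyl-CoA, from 23142 to 6023 and 4325 (-1.94 and -2.42 ± 0.0545). Scp2, a thiolase and sterol carrier, was called at 16 weeks (-1.13 ± 0.0582), while its other tested probe set was also beyond 2-fold at 12 and 18 weeks (-1.36 and -1.28). In the other direction, 1, 2, 1, 0 and 1 of the 14 were called higher at the 5 times in order. Of all genes tested, 4.55%, 7.52%, 12.4%, 14.8% and 11.3% were higher. Abcd3, which carries acyl-CoA into peroxisomes, was among the 14 genes' higher calls at 8 weeks (1.19 ± 0.0755). Decr2, a peroxisomal reductase chosen here after its values were seen, had a bright probe set that was lower at 12 and 16 weeks (-1.32 and -1.48) and a dim one that was higher (1.71 and 1.22), so its direction is unsettled.

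Of the 7 ketone body genes, 1, 0, 4, 3 and 2 were lower at the 5 times in order, and none was higher. Bdh1, which reduces acetoacetate, was called from 12 weeks (-1.24, -1.93 and -1.60 ± 0.0538), and Slc16a1, a monocarboxylate transporter, at 12 weeks alone (-1.08 ± 0.0547).

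**Figure D4:**
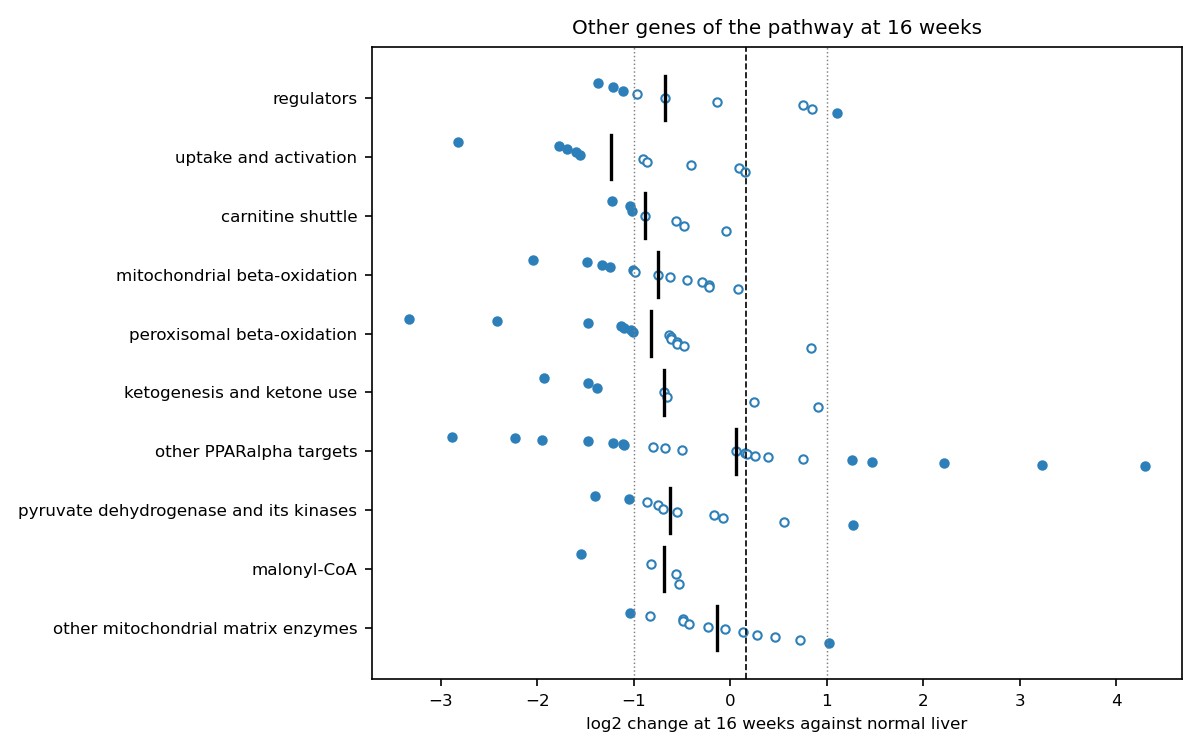
Log2 change at 16 weeks against normal liver (horizontal axis) for the tested genes of each list other than the 8 members, 1 point per gene (filled when called), with a bar at the list's median and a dashed line at the median of all genes, 0.16. Most lists have medians between -1.23 and -0.62, other PPARalpha targets spread from strongly lower to strongly higher, and other mitochondrial matrix enzymes lie around -0.14.

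Other PPARalpha targets did not move as a block. Of 21 tested besides Pdk4, 7 were lower and 3 higher at 12 weeks, 7 and 5 at 16 weeks, and 5 and 5 at 18 weeks. Of all genes tested, 4.51%, 5.69% and 4.48% were lower at these times and 12.4%, 14.8% and 11.3% higher. The count higher at 12 weeks was thus close to the share over all genes. G0s2, an inhibitor of triglyceride lipase, fell from 8141 in normal liver to 1165 at 12 weeks (-2.79 ± 0.0996). Other genes of the list were called higher. Cidea, a lipid droplet protein, rose from 360.0 to 2273 at 12 weeks (2.61 ± 0.0629), and Lpl, which splits circulating triglycerides, rose from 378 to 3681 at 16 weeks (3.23 ± 0.0788). Acot1, a cytosolic acyl-CoA thioesterase, had 10.2 in normal liver, 25.2 after 12 weeks and then 468 and 322 (4.30 and 3.78 ± 0.401 at the last 2 times, sizes that depend on the pseudocount). It passed the filter on mean signal only through these last 2 times. Its calls there, counted among the 5 higher, are thus not independent of the filter. Ucp2, an uncoupling protein homologue, rose from 12 weeks (1.117 to 1.471), Aqp7, a glycerol channel, at 16 and 18 weeks (1.27 and 1.56), and the omega-hydroxylase gene Cyp4a8 at 5 and 8 weeks (1.35 and 1.35 ± 0.136). The other tested Cyp4a8 probe set was at 0.54 and 0.40 at these times, under 2-fold.

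Among 9 regulators tested, 2, 3 and 1 were called lower at 12, 16 and 18 weeks and 1 higher at 16 weeks. Of all genes tested, 4.51%, 5.69% and 4.48% were lower at these times, and 14.8% were higher at 16 weeks. Creb3l3, a hepatic factor of the fasting response, fell at 12 and 16 weeks (-1.62 and -1.22 ± 0.0766), and Lpin1, a phosphatase and coactivator, at 16 and 18 weeks (-1.37 and -1.58 ± 0.0808). Sirt3, the mitochondrial deacetylase, fell at 12 weeks (-1.36 ± 0.111). Rxra, the receptor partner of PPARalpha, fell at 16 weeks (-1.11 ± 0.0736), while its other tested probe set was lowest at 8 weeks (-2.30). The part of the high Gapdh 3'/5' ratio at 8 weeks in that value was not tested. Esrra, a nuclear receptor of mitochondrial genes, rose at 16 weeks (1.11 ± 0.200). In the pyruvate dehydrogenase group, Pdk4 was not matched by its relatives. Pdk1 fell at 16 weeks (-1.05 ± 0.0702), and Pdk3 rose from 12 weeks by its brightest probe set (1.123 to 1.515). The other tested Pdk3 probe set was already at 1.26 and 1.51 at 5 and 8 weeks. Pdp2, the phosphatase that opposes the kinases, fell from 12 weeks (-1.37 to -1.68). Malonyl-CoA, which inhibits Cpt1a, is made by acetyl-CoA carboxylases and used by fatty acid synthase. Acacb, the mitochondrial carboxylase, was called lower at 8 and 18 weeks (-1.85 and -1.46 ± 0.269). Its mean signal was 173 in normal liver and 40.8 and 53.3 at these times, both under the filter level. These sizes thus depend on the pseudocount. Acacb was above the filter level only in normal liver and at 12 and 16 weeks, so its calls are not independent of the filter. The part of the high Gapdh 3'/5' ratio in its 8-week value was not tested. Fasn fell from 12 weeks (-1.11, -1.55 and -1.39 ± 0.0733).

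Genes were also ranked by how closely their 5 changes followed a member, as the root mean square difference over the 5 times. Nearest to Cpt1a were Abhd2 (0.317) and Stard4 (0.372), to Ehhadh Ppp1r3b (0.282) and Bhmt (0.396), and to Pdk4 Il1r1 (0.44) and Lepr (0.463). Acadm was followed by Tex2 (0.067) and Urah (0.074), and Hadha by Sidt2 (0.049) and Acot8 (0.063). Cpt2 was followed by Ndufa8 (0.035) and Dnajb11 (0.041), and Acadl by Surf4_predicted (0.039) and Ppa1 (0.04). The members with the largest falls had nearest genes at distances of 0.282 or more. The distance was not scaled to the size of the change, so this cannot be told apart from the size of their falls. This ranking is a description across 5 values per gene.

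Markers of cell types were followed in the same arrays. The summed signal of 14 hepatocyte markers was 378840 to 434370 in normal liver, 325810 to 339350 at 5 weeks and 254580 to 286170 at 8 weeks. It was 268280 to 285680 at 12 weeks, 240550 to 258030 at 16 weeks and 271970 to 290000 at 18 weeks. All 14 passed the filter, and 1, 2, 3, 4 and 1 of them were called lower from 5 to 18 weeks, with a median of -0.76 at 16 weeks. The 10 cholangiocyte and progenitor markers summed to 1752 to 1861 in normal liver and 15244 to 16494 at 16 weeks, with 8 of 8 tested called higher from 12 weeks. The 11 stellate cell and myofibroblast markers summed to 6042 to 6149 in normal liver and 24629 to 25304 at 16 weeks, with 10 of 11 called higher. The 9 macrophage markers summed to 31565 to 32577 in normal liver and 31620 to 32095 at 16 weeks. The 7 endothelial markers summed to 8802 to 9508 and 6582 to 6861, and the 6 lymphocyte markers to 991 to 1052 and 1422 to 1451. The 6 adipocyte markers summed to 1239 to 1652 and 2398 to 2643, and the 8 striated muscle markers to 256 to 389 and 831 to 885. In bulk tissue fewer hepatocytes and less RNA per hepatocyte cannot be told apart, and the part of these shifts in the member results was not tested.

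Scaling also bears on direction. The deposited values were used without further scaling, and the median signal of an array ran from 123.2 to 187.8. Centring arrays on their medians changed the split of all called genes, in which 73.2%, 70.2%, 73.3%, 72.3% and 71.6% were higher in order of time, to 61%, 60%, 40.7%, 37.5% and 55.7%. It moved the median of all genes to -0.06, 0.01, -0.23, -0.31 and -0.07. Under it 2, 2, 4, 5 and 4 members were called lower from 5 to 18 weeks, and under quantile normalization 2, 2, 3, 3 and 3, with none higher under either. Cpt1a, Pdk4 and Ehhadh kept their direction and calls at the times given above under both scalings.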

How the data were processed

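Total RNA of rat liver was measured on 18 arrays. Per the labels' protocols, extraction used Trizol followed by RNeasy clean-up, and 5 ug was labelled per array. GCOS 2.0 is named in the submitters' processing notes. Each probe set has 1 intensity on a linear scale in the deposited value table, whose scaling target and detection calls are not stated. A deposited workbook holds gene symbols, the same intensity values rounded, and, per the file headers, log2 ratios of treated to normal arrays by the authors (9 pairs per time). Its 15 treated columns equalled the value table within 0.1. Its 3 normal columns matched it only after sorting (r by probe set at most 0.127) and were left out, as were 45 linear ratio columns.

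The table of 31099 probe sets included 57 controls, left out of the tests. Members were taken by the deposited symbol. Other genes were named through RefSeq accessions, current symbols or synonyms, and 11121 probe sets had no name and 23 several. Signals were transformed to log2(signal + 16), a pseudocount that understates changes of dim probe sets, with no further scaling. The 18625 probe sets with a mean above the 40th percentile were fitted with 6 group means in limma 3.58.1 (R 4.3.3), with a constant prior variance, two-sided tests and Benjamini-Hochberg adjustment over all probe sets tested. Percentages of a normal mean signal are ratios of group means on the linear scale, without the pseudocount. Python 3.11.15 drew the figures (matplotlib 3.10.9, numpy 2.4.6, pandas 2.3.3). The fit was tested on simulated data.

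The members and the gene lists were chosen with earlier results of these data known. Genes named from a list were up to 4 called genes with the largest mean change and any called against the list's direction, and the 2 nearest genes to each member. A few genes that this rule names are not reported here. Arrays of different groups with the same replicate number had correlations of deviations from -0.067 to 0.164, over 0.1 in 7 of 45 pairs. Their median was 0.034, beside -0.017 for pairs with different numbers, so a weak link by number cannot be set aside. The number of arrays limits the precision. Alternatives were quantile normalization, median centring, other pseudocounts, filters, fold thresholds and variance priors, 1 or all probe sets per gene, a fit restricted to the pair of groups, a replicate block, leaving out each array and the authors' ratios. Fits without the 8-week arrays and with the dimmest probe set of a gene were chosen after seeing the data.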

Additional observations from a re-analysis of the deposited data

Results flagged for a closer look

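The change of Ehhadh against normal liver differed between 8 and 5 weeks, by -1.62 ± 0.0796 (adjusted p = 1.99e-09, limma), with all 3 arrays of 5 weeks above normal liver and all 3 of 8 weeks below it. The change of Pdk4 differed between the same times by -1.32 ± 0.167 (adjusted p = 3.1e-05, limma). The change of Cpt1a, read by its brighter probe set, differed by 1.11 ± 0.0795 between 8 and 5 weeks (adjusted p = 1.07e-07, limma) and by -1.06 ± 0.0795 between 12 and 8 weeks (adjusted p = 5.01e-08, limma). The dimmer Cpt1a probe set differed by 0.17 and 0.69 in these comparisons, neither called. Between 8 and 12 weeks it thus went up where the brighter probe set went down. The 8-week arrays had the highest Gapdh 3'/5' ratios, 2.08 to 2.18, and the part of this in the 4 differences was not tested. Groups of 3 arrays are too small for a search for single outlying arrays.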

How the results depend on the processing

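Counts of called genes were recomputed under each alternative. Leaving out each of the 18 arrays in turn kept the number of member genes called against normal liver at 2, 2, 3, 4 and 3 from 5 to 18 weeks, and so did the replicate block, under which 42 pathway genes and 3882 probe sets were called at 16 weeks. The block changed no other count of calls by over 1.5 times, and 10 of 18 arrays correlated best with arrays of their own number. Quantile normalization gave 27 pathway genes at 16 weeks (main 42), and member probe sets called between times numbered 0 (12 against 8 weeks), 2 (12 against 5), 1 (16 against 5) and 2 (18 against 5), against 1, 1, 2 and 1. Median centring gave 64 pathway genes at 16 weeks, and 1 (18 against 16), 3 (12 against 5) and 2 (18 against 5) member probe sets, against 0, 1 and 1. A pseudocount of 1 gave 2 at 18 against 5 weeks, no filter gave 2 at 12 against 8 and 2 at 12 against 5 weeks. Without single arrays, 18 against 5 weeks gave 1 to 2 (2 without the first array of 5 weeks or the third of 18 weeks) and 18 against 16 weeks 0 to 1 (1 without the first array of 16 weeks or the second of 18 weeks). Over all probe sets (main 1440, 2425, 3081, 3881 and 2688), a pseudocount of 64 gave 833 and 1574 at 5 and 8 weeks, and a filter at the 60th percentile 822, 1426, 1891 and 2334 from 5 to 16 weeks, where fewer probe sets are tested. The dimmest tested probe set of each gene gave 10 and 18 pathway genes at 5 and 8 weeks (main 6 and 9).

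With no fold threshold, member probe sets called numbered 5, 6, 9, 9 and 8 (main 3, 3, 4, 5 and 4), member genes 5 at 8 weeks and 7 at 12, 16 and 18 weeks, pathway genes 66, 70, 80, 81 and 78, all probe sets 9053, 10711, 11611, 12259 and 10830, and members between times 5, 9, 3, 7, 7, 7 and 9. At 3-fold, all probe sets numbered 382, 798, 1222, 1618 and 1049, member genes 1 at 8 weeks, pathway genes 4, 12, 14 and 14 from 8 to 18 weeks, and members between times 1 (8 against 5), 0 (12 against 8) and 1 (16 against 5).

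No called member change turned its sign under any alternative run. Uncalled ones near 0 did. Under quantile normalization Acadl was at 0.101, 0.061 and 0.067 at 5, 8 and 18 weeks and Acadm at 0.145 at 8 weeks, and under median centring Acadm was at -0.068 and Cpt2 at -0.076 at 5 weeks. Cpt2 at 5 weeks ranged from -0.017 to 0.078 without single arrays (-0.001 also turned) and the dimmer tested Hadha probe set at 18 weeks from -0.165 to 0.046 (0.007, 0.039 and 0.046 where it turned). In the authors' deposited table the mean log2 ratio of Cpt2 was -0.111 at 5 weeks and 0.044 at 8 weeks. At the 2-fold threshold, calls of single members against normal liver changed with the scaling for Acadm and Acadl (-1.004 at 16 weeks with centring) and without the filter for Ppara. The other fold thresholds changed further calls, such as that of Ehhadh at 8 and 18 weeks, which did not reach 3-fold. Averaging the probe sets within genes leaves no probe set count to give. Where not stated, the cause was not tested. Signals under the filter level, as for Ppara, limit what can be read of dim probe sets.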
